A study of Mus musculus with 34 samples.

Results

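Lung macrophages of the mouse embryo were followed through 9 genes that mark them: Csf1r, Cx3cr1, Adgre1, Mrc1, Ptprc, C1qa, C1qb, Lyz2 and Mpeg1. The genes were chosen by symbol among the 21789 rows of the count tables, with earlier results of these data known. Each of the 9 had a row and passed the filter on low counts. The series asked how expression of Lin28A affects the development of the lung. Lin28A binds RNA and keeps precursors of let-7 microRNAs from being processed. Poly(A) RNA of whole lungs gave 34 libraries in 10 groups. Lin28A was expressed globally (n = 3 at E12.5, 4 at E14.5, 3 at E16.5, 5 at E18.5), in lung epithelial cells (n = 3, E18.5) or in lung mesenchymal cells (n = 2, E18.5). Control lungs without it numbered 5 on the last of these days and 3 on each earlier one. Titles of the transgenic libraries carry the tag Vasa for global, Nkx2.1 for epithelial and Wt1 for mesenchymal expression. The promoter, the allele, the strain and the number of embryos behind a library are not given in the sources used here. All groups, controls included, carry the same note of doxycycline in drinking water (1 g/L) from E0.5. Nothing says that the libraries of a group came from separate animals or litters, so each p-value measures the spread between these libraries, which may be technical.

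Macrophages are phagocytes that reach the lung early in embryonic life, first from the yolk sac and then from fetal liver monocytes, and they depend on signalling through the receptor Csf1r, whose ligands are Csf1 and Il34. In the fetal lung they clear dying cells, and around birth fetal monocytes give rise to the macrophages of the alveoli. Several of the genes are not read by macrophages alone: Ptprc marks all leukocytes, Lyz2 is also expressed by neutrophils and alveolar type 2 cells, Cx3cr1 by monocytes, and Mrc1 by lymphatic and sinusoidal endothelium. In RNA of whole lungs, fewer macrophages and less RNA per macrophage cannot be told apart.

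Total counts per library ranged from 7147301 to 17624884, and no member had fewer than 17 counts in any library. Lin28a averaged between 328 and 952 CPM (counts scaled to library size) in the transgenic groups and between 0.447 and 1.64 CPM in the control groups, as the labels say. One E14.5 library stood apart and touches the macrophage genes. E14.5 control 3 had counts for 14 of 14 thymus and T cell genes and a summed level of 567 CPM for them, whereas the other E14.5 controls had 128 and 126 CPM with 9 genes detected and the E14.5 global lungs 88.9 to 116 CPM with 9 or 10 genes detected. Calls that use that library are therefore given with and without it.

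Per kilobase of principal transcript in E18.5 control lungs, Lyz2, which encodes lysozyme, had the highest level of the 9 genes (413 ± 129 CPM per kb, SD, n = 5). The complement chains C1qa (22.4 ± 3.66) and C1qb (22.2 ± 5.16) followed and did not differ beyond their spread. Csf1r (12.4 ± 1.30), the receptor that macrophages need to survive, and Mpeg1 (10.5 ± 2.36), which encodes a pore-forming protein that acts on engulfed bacteria, came next and overlapped. Mrc1, the mannose receptor, stood at 7.19 ± 0.286 CPM per kb. Cx3cr1, the receptor of the chemokine fractalkine, was at 4.30 ± 1.18, Adgre1, which encodes the surface protein F4/80, at 3.21 ± 0.672, and Ptprc, the leukocyte phosphatase CD45, at 2.88 ± 0.955 CPM per kb. The last 3 levels overlapped within their SDs.

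The members lie on 8 chromosomes in GRCm38: Csf1r on 18 (61100598 to 61132149), Cx3cr1 on 9 (119901616 to 120069879), Adgre1 on 17 (57358691 to 57483527), Mrc1 on 2 (14229392 to 14332057), Ptprc on 1 (138062861 to 138175708), Lyz2 on 10 (117277331 to 117282321) and Mpeg1 on 19 (12460779 to 12465283). C1qa (136895917 to 136898803) and C1qb (136880129 to 136886187) are neighbours on chromosome 4. RefSeq windows of the 250 bases before a start site (GRCm38.p6) were at hand for 6 of the 9 genes. They were searched on both strands for AGGAAGT, a core bound by ETS factors such as Spi1, which drives macrophage development. The word was found in 4 of the 6 genes (Lyz2, C1qb, Mrc1 and Ptprc), against 8.8% of the 27025 genes with such windows. It was not in the windows of Cx3cr1 and Mpeg1. The longer word GAGGAAGT was in none of the 6, against 2.79% of all genes. These are matches of letters and not mapped sites. The windows of Lyz2 (chr10:117282273-117282522, minus strand), C1qb (chr4:136886201-136886450, minus strand), Mrc1 (chr2:14229164-14229413, plus strand) and Ptprc (chr1:138175306-138175555, minus strand, the upstream of its start sites) are shown as examples with the word, and that of Cx3cr1 (chr9:120068297-120068546, minus strand) because its counts followed a course of their own. Each runs 5′ to 3′ along the gene, and capitals mark AGGAAGT or its reverse complement ACTTCCT.
Lyz2: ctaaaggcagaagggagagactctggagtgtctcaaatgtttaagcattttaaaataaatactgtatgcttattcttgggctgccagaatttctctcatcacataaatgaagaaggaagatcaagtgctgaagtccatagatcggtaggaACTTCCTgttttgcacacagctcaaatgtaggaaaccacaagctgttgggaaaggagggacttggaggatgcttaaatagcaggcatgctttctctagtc
C1qb: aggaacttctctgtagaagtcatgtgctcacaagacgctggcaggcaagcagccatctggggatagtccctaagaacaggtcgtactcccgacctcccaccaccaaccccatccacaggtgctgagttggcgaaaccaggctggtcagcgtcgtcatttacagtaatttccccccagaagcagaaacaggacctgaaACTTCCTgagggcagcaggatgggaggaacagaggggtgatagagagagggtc
Mrc1: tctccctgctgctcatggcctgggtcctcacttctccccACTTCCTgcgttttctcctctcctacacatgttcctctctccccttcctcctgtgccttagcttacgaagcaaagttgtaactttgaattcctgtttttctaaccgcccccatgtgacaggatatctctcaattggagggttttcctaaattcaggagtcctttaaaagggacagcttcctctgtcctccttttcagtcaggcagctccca
Ptprc: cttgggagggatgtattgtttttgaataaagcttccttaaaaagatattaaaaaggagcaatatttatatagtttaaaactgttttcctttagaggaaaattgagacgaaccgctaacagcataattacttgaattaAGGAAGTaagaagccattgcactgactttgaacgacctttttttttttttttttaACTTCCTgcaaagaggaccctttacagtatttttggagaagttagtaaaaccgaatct
Cx3cr1: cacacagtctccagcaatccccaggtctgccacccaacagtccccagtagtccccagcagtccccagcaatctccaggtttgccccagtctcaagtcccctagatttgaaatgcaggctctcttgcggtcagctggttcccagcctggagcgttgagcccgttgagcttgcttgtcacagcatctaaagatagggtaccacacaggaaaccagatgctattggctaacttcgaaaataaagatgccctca

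Counted from -1 at the base before the start site, the match of Lyz2 begins at -100, that of C1qb at -53 and that of Mrc1 at -211, and Ptprc has 2 matches. Of the 10 mature let-7 microRNAs listed by RefSeq, 9 share the seed GAGGUAG (bases 2 to 8, in capitals below) and let-7j has GAGGUAU. A site that matches the shared seed in a transcript reads CTACCTC. A pair of family members from RefSeq show the shared seed.
let-7a: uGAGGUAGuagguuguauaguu
let-7g: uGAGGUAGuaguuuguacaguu

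None of the 9 macrophage transcripts held CTACCTC in its longest annotated 3′ UTR, against 9.02% of the 21020 genes that have one. The members' 3′ UTRs were 160 (C1qb) to 2587 (Cx3cr1) bases long.

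In control lungs the macrophage genes did not follow 1 course between E12.5 and E18.5. Lyz2, lysozyme, had 5.61, 4.30 and 12 CPM at E12.5 and 31.5, 35.3 and 47.0 CPM at E14.5. It had 105, 121 and 88.6 CPM at E16.5, and the E18.5 libraries had 635, 733, 609, 315 and 424 CPM. No 2 successive stages overlapped, and each step passed the test (log2 fold 2.39 ± 0.35, adjusted p = 1.29e-05; 1.46 ± 0.31, 0.000527; and 2.37 ± 0.30, 4.91e-07). The 10 alveolar type 2 genes, of a cell that also makes lysozyme, had median sums of 302, 1701, 9427 and 21322 CPM in the same 4 groups, and their part in the course of Lyz2 was not tested. Mrc1, the mannose receptor, went the other way, with 61.5, 49.3 and 64.4 CPM at E12.5 and 38.4, 43.5 and 42.9 CPM at E14.5. Its later values were 36.7, 31.2 and 38.4 CPM (E16.5) and 36.4 to 40.6 CPM (E18.5). The fall to E14.5 was called (-0.49 ± 0.13, adjusted p = 0.0096), but not without E12.5 control 3 (-0.41, 0.061) or E14.5 control 1 (-0.44, 0.0526).

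**Figure D1:**
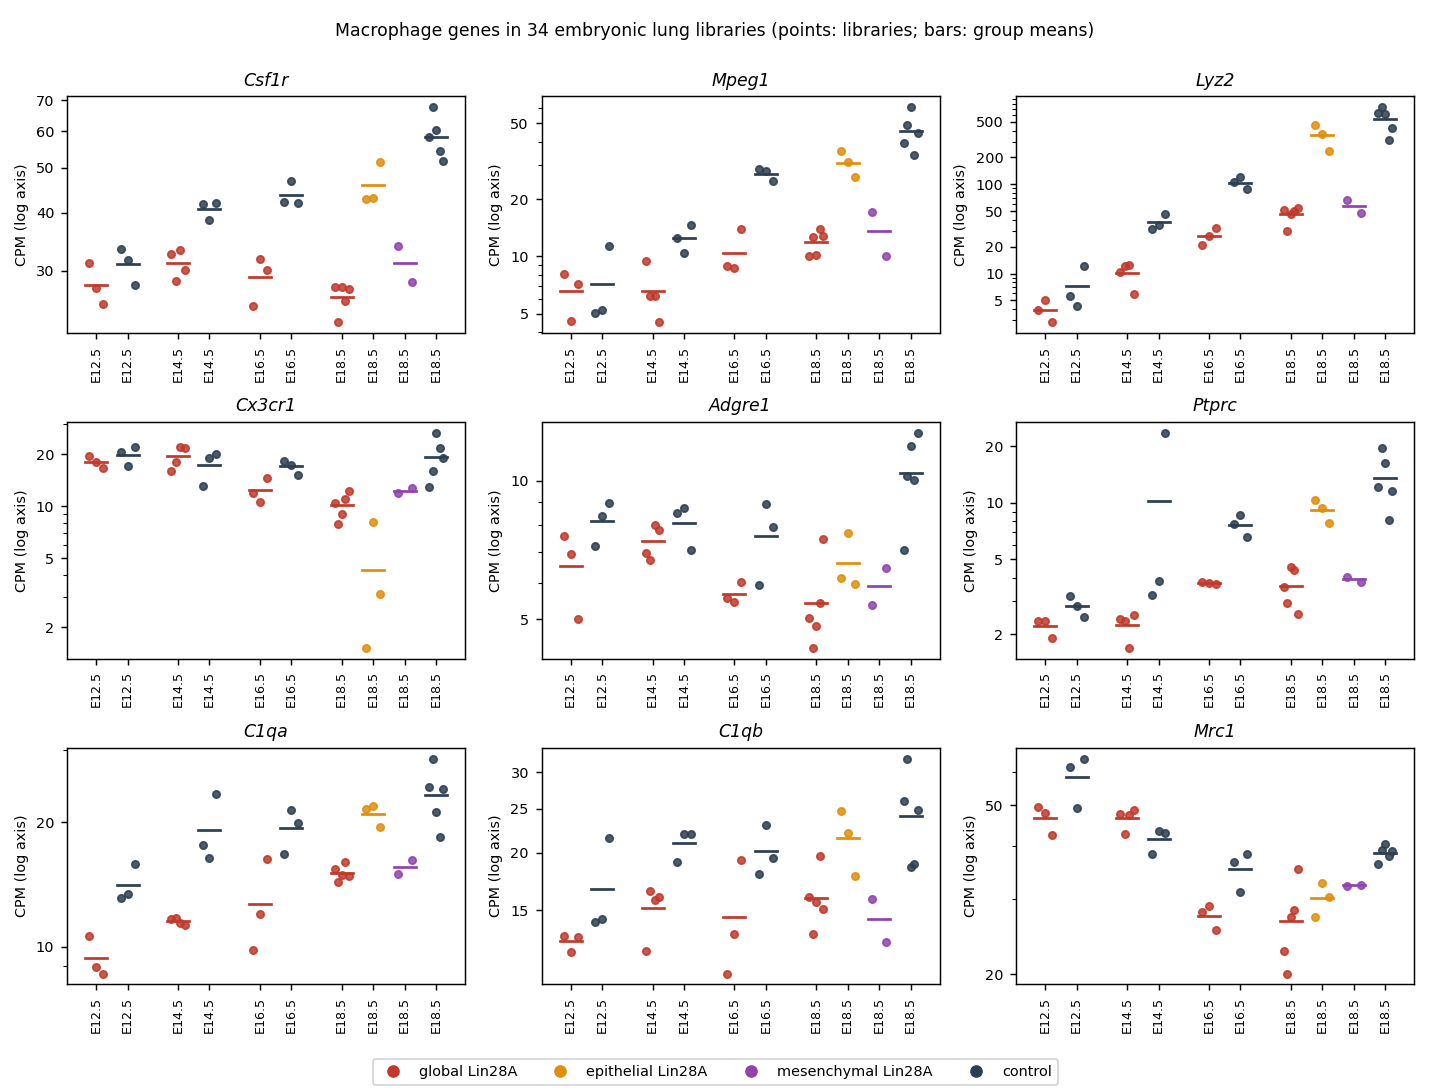
CPM of each of the 9 macrophage genes (log axis, 1 panel per gene) in every library, by embryonic day and group; points are libraries and bars are group means. In E18.5 control lungs Lyz2 lies at 315 to 733 CPM, whereas global lungs lie at 29.8 to 54.6, and Cx3cr1 is lowest in epithelial lungs at 1.52 to 8.15.

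Between E12.5 and E14.5 control lungs 5 of the 9 genes rose (11.3% of all genes tested did) and 1 fell (5.45%). Without E14.5 control 3 the calls were Lyz2 (2.20) and Mrc1 (-0.51) alone. Ptprc, the leukocyte phosphatase, shows why both are given: it had 3.23, 3.83 and 23.6 CPM at E14.5, with the high value in control 3, against 3.19, 2.82 and 2.48 CPM at E12.5. Its log2 fold was 1.85 ± 0.44 (adjusted p = 0.00387), and 0.31 ± 0.28 without that library (0.524). From E14.5 to E16.5 the calls were rises of Mpeg1 (1.12 ± 0.27, adjusted p = 0.00174) and Lyz2, 2 of 9, against 18.1% of all genes. Without E14.5 control 3 both were called again (1.24, 0.00327 for Mpeg1 and 1.65, 0.000979 for Lyz2). Ptprc at E16.5 had 7.69, 8.65 and 6.56 CPM, a log2 fold of -0.42 ± 0.42 against all 3 E14.5 controls (adjusted p = 0.463) and a rise of 1.11 ± 0.28 against controls 1 and 2 (0.00317). From E16.5 to E18.5, 4 of 9 rose, against 17.1% of all genes: Lyz2, Csf1r (0.42 ± 0.10, adjusted p = 0.0016), Mpeg1 (0.74 ± 0.24, 0.0152) and Adgre1 (0.46 ± 0.18, 0.045). The last call ended without any of 5 single libraries, E16.5 control 1 (0.32, 0.249) among them, and that of Mpeg1 without E16.5 control 3 (0.69, 0.0724). Cx3cr1 and C1qb passed the test at none of the 3 steps, with group means of 17.0 to 19.9 CPM for Cx3cr1 and 16.6 to 24.1 CPM for C1qb.

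Global lungs at E12.5 had no called member, in edgeR or in DESeq2, where 0.104% of all genes were called lower. The 9 log2 folds were all below 0, from -0.89 for Lyz2 to -0.11 for Mpeg1 (median -0.33, and -0.0017 over all genes tested), and 3 had an unadjusted p under 0.05. C1qa, the first chain of the complement starter C1q, came nearest. It had 10.6, 8.95 and 8.61 CPM in global lungs, against 13.1, 13.4 and 15.9 CPM in control lungs (-0.59 ± 0.16, adjusted p = 0.153), and the groups did not overlap. Lyz2 had 3.86, 5.08 and 2.85 CPM in global lungs and 5.61, 4.30 and 12 in control lungs, which overlapped.

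At E14.5, 5 of the 9 genes were lower in global lungs, against 8.44% of all genes tested, but 3 of the 5 calls were lost without control 3. Lyz2 had 10.4, 12.3, 12.3 and 5.91 CPM in global lungs, against 31.5, 35.3 and 47.0 CPM in control lungs. Every global library lay below every control library (-1.89 ± 0.31, adjusted p = 0.00015; -1.70 and 0.00218 without control 3). Of the 10 alveolar type 2 genes 4 fell (2 without control 3), with sums of 391 to 611 CPM in global lungs and 1662 to 1767 CPM in control lungs, and their part was not tested. C1qa had 11.7, 11.7, 11.4 and 11.3 CPM in global lungs, against 17.6, 16.4 and 23.5 in control lungs (-0.73 ± 0.15, 0.00113; -0.56 and 0.026 without control 3). No other member was called without it. C1qc, the remaining chain of C1q and no member, was lower with all libraries (-0.51 ± 0.15, 0.022) and not called without control 3 (-0.46, 0.102).

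Ptprc had 2.42, 2.36, 1.69 and 2.52 CPM in E14.5 global lungs, against 3.23, 3.83 and 23.6 in control lungs. The log2 fold was -2.18 ± 0.42 with all libraries (adjusted p = 0.000766) and -0.65 ± 0.27 without control 3 (0.156). Csf1r, the growth factor receptor, had 32.6, 28.6, 33.3 and 30.1 CPM in global lungs, against 41.7, 38.7 and 42.0 in control lungs. The groups did not overlap and control 3 was close to control 1, yet the call (-0.39 ± 0.10, adjusted p = 0.0116) ended without that library (-0.37, 0.0574). Mpeg1 (-0.93 ± 0.26, 0.0179) was likewise lost without control 3 (-0.81, 0.103) and without global 4 (-0.79, 0.0756). C1qb (-0.47 ± 0.19, 0.0982; 0.0457 with only the compared groups) and Adgre1 (-0.14 ± 0.19) were not called. Cx3cr1 (0.16 ± 0.26) and Mrc1 (0.16 ± 0.12) were above 0 and not called, and Mrc1 had 42.7 to 48.8 CPM in global lungs and 38.4 to 43.5 in control lungs.

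**Figure D2:**
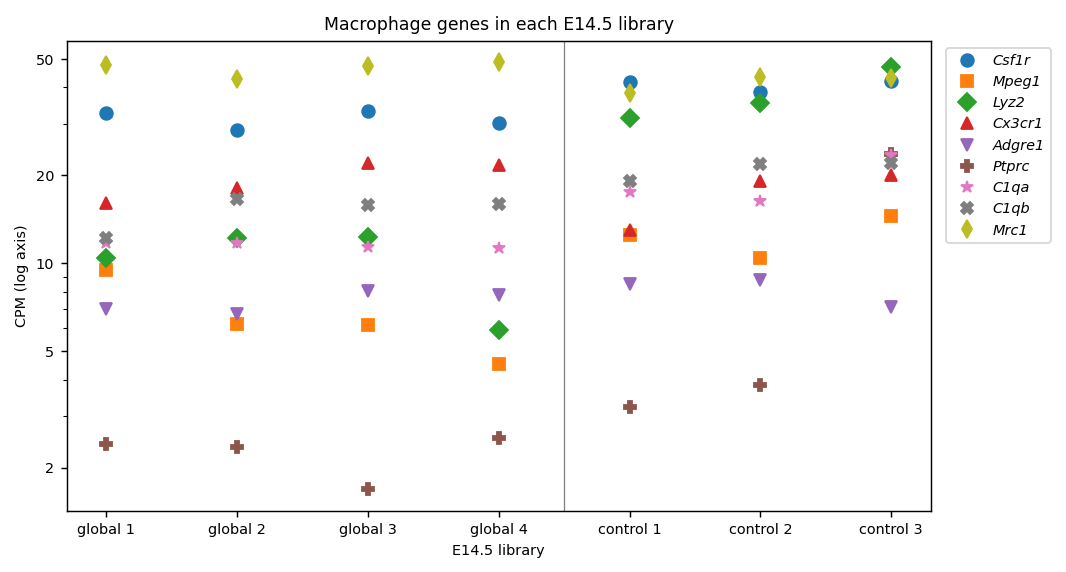
CPM (log axis) of the 9 macrophage genes in each of the 7 E14.5 libraries, the 4 global lungs left of the line and the 3 control lungs right of it. Ptprc is at 23.6 CPM in control 3 and at 1.69 to 3.83 in the other 6 libraries, while Lyz2 is at 5.91 to 12.3 CPM in global and at 31.5 to 47.0 CPM in control lungs.

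At E16.5, 5 of the 9 genes were lower in global lungs, against 20.1% of all genes tested. Csf1r had 25.2, 31.9 and 30.2 CPM in global lungs, against 42.3, 46.8 and 42.1 CPM in control lungs (-0.59 ± 0.11, adjusted p = 0.000127). Mpeg1, the pore-forming protein, had 8.88, 8.72 and 13.8 CPM in global lungs, against 28.8, 27.9 and 24.8 CPM in control lungs (-1.37 ± 0.27, 0.000217). Lyz2 had 20.7, 26.2 and 32.8 CPM in global lungs, against 105, 121 and 88.6 CPM in control lungs (-1.98 ± 0.32, 1.56e-05). In none of these 3 genes did a global library reach a control library. Beside Lyz2, 9 of the 10 alveolar type 2 genes fell, with sums of 611 to 1237 CPM in global lungs and 7943 to 12194 CPM in control lungs, and their part was not tested. C1qa also fell (-0.61 ± 0.16, 0.00297), as did Mrc1 by less (-0.37 ± 0.14, 0.0317), a call that ended without any of 4 single libraries (adjusted p of 0.0605 to 0.12). Ptprc had 3.79, 3.74 and 3.71 CPM in global lungs, against 7.69, 8.65 and 6.56 in control lungs. Its groups did not overlap and its fold was -1.02 ± 0.44, but it was not called (0.0698). With only the compared groups in the fit it was called (adjusted p = 0.000695). Cx3cr1 (-0.46 ± 0.29), Adgre1 (-0.42 ± 0.20) and C1qb (-0.48 ± 0.20) were not called either, although Cx3cr1 was with only the compared groups (0.0213).

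At E18.5 all 9 genes were lower in global lungs, against 32.7% of all genes tested, and all 9 calls held when any 1 library was left out and under each alternative run. The median log2 fold was -0.94, and -0.01 over all genes tested. Among the receptors, Csf1r had 27.7, 23.3, 27.7, 25.8 and 27.5 CPM in global lungs, against 58.3, 67.6, 60.2, 54.3 and 51.7 CPM in control lungs. The groups lay far apart, and the gene was 2.21-fold lower (-1.14 ± 0.09, adjusted p = 3.77e-12). Cx3cr1 had 10.5, 7.91, 9.10, 11.1 and 12.3 CPM in global lungs, against 13, 16.0, 26.7, 21.9 and 19.0 in control lungs (-0.93 ± 0.23, 0.000679). Adgre1, F4/80, had 4.33 to 7.48 CPM in global lungs and 7.06 to 12.7 in control lungs, which overlapped by the highest global and lowest control library (-0.94 ± 0.16, 6.18e-06). Mrc1 fell least of the 9, with 22.7, 20.1, 27.3, 28.3 and 35.3 CPM in global lungs, against 36.4 to 40.6 in control lungs (-0.53 ± 0.11, 6.76e-05). Of the 7 lymphatic and sinusoidal endothelial genes tested, 5 fell and 2 rose. Their summed level was 340 to 380 CPM in global lungs and 617 to 871 CPM in control lungs, with no gene at 0. The part of these genes in the result for Mrc1, and whether macrophages also express them, was not tested.

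Ptprc had 3.55, 2.92, 4.55, 4.39 and 2.57 CPM in E18.5 global lungs, against 12.2, 19.6, 16.4, 8.11 and 11.5 CPM in control lungs. No global library reached the lowest control (-1.90 ± 0.34, 3.74-fold lower, adjusted p = 1.82e-05). Genes of other blood cells were counted beside it, where 32.7% of all genes tested were lower, and their part was not tested. All 11 monocyte and neutrophil genes tested fell, the 13 with a row summing to 39.9 to 60.7 CPM in global lungs (Elane at 0) and 101 to 194 CPM in control lungs. All 5 tested B cell genes fell, the 8 with a row summing to 3.09 to 5.42 CPM in global lungs and 10.3 to 13.3 CPM in control lungs. Of 10 thymus and T cell genes 5 fell and 1 rose, and the 5 were 2 without E18.5 control 2. The 14 with a row summed to 59.3 to 80.9 CPM in global lungs (Cd3e and Ptcra at 0) and 68.6 to 105 CPM in control lungs, which overlapped. All 4 tested dendritic cell genes fell, the 7 with a row summing to 29.0 to 44.4 CPM in global and 66.0 to 108 CPM in control lungs. Of 5 mast cell and basophil genes 2 fell (median sums of 17.5 CPM in global and 77.6 CPM in control lungs), and of 5 megakaryocyte genes 4 fell (7.33 to 10.1 CPM in global, 16.95 to 31.4 CPM in control lungs). Of 8 erythroid genes 4 fell and 1 rose, with sums of 1233 to 3236 CPM in global and 4312 to 9836 CPM in control lungs.

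The complement chains moved together and by less. C1qa had 14.3 to 16.0 CPM in E18.5 global lungs, against 18.4 to 28.6 CPM in control lungs (-0.62 ± 0.12, 1.54-fold lower, adjusted p = 5.23e-05). C1qb had 13.3 to 19.7 CPM in global lungs, against 18.6 to 32.2 CPM in control lungs, with 1 global library inside the control range (-0.59 ± 0.16, 0.00179). C1qc had a log2 fold of -0.61 ± 0.13 (0.00011).

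Among the effectors, Lyz2 had 51.7, 29.8, 47.0, 49.9 and 54.6 CPM in E18.5 global lungs, against 635, 733, 609, 315 and 424 CPM in control lungs. It was 11.6-fold lower, the furthest of the 9 (-3.54 ± 0.26, adjusted p = 1.34e-12). Mpeg1 had 10.1, 12.6, 10.1, 14 and 12.8 CPM in global lungs, against 39.3, 49.2, 60.7, 34 and 44.2 CPM in control lungs (-1.93 ± 0.21, 4.72e-09). Its groups were also fully apart. Lyz2 has a near-identical neighbour, Lyz1, whose reads the counting may have divided. Lyz1 averaged 5.14 ± 3.11 CPM in global lungs and 802 ± 407 CPM in control lungs. Alveolar type 2 cells are epithelial and also make lysozyme. Of their 10 listed genes, Lyz1 among them, 9 fell, against 32.7% of all genes tested. Their summed level was 308 to 3520 CPM in global lungs and 16774 to 26778 CPM in control lungs, with no gene at 0. Their part in the result for Lyz2 was not tested.

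**Figure D3:**
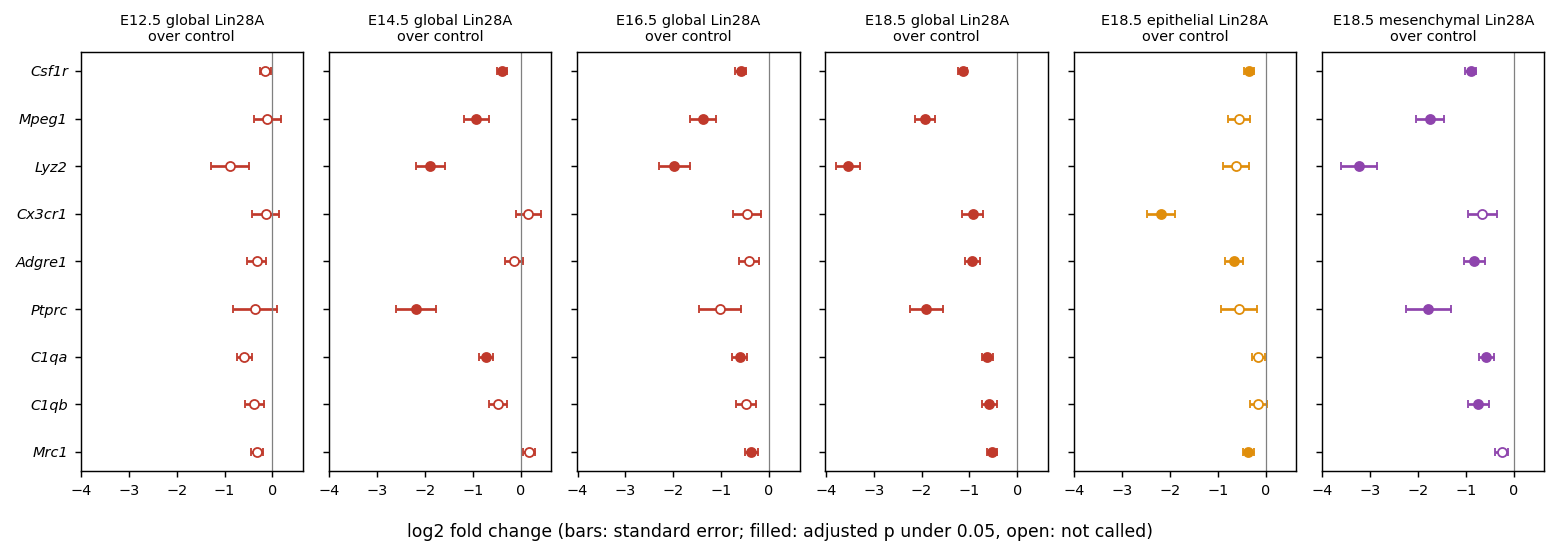
Log2 fold change of the 9 macrophage genes over control lungs in the 6 comparisons (x axis; points are estimates, bars standard errors, filled points an adjusted p under 0.05). Filled points number 0, 5, 5 and 9 in global lungs from E12.5 to E18.5, 4 in epithelial and 7 in mesenchymal lungs, and the epithelial panel has its lowest point at Cx3cr1 (-2.19).

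The difference of the global effect between successive stages was tested directly. From E12.5 to E14.5 and from E14.5 to E16.5 no member passed edgeR's test, and none did without E14.5 control 3. With all libraries 0.0437% and 7.88% of all genes passed in either direction. DESeq2 then called 0 and 1 members, and 3 and 1 had an unadjusted p under 0.05 in edgeR. From E16.5 to E18.5 the effect grew for 2 of 9 genes, against 3.64% of all genes whose effect became lower: Csf1r (-0.55 ± 0.14, adjusted p = 0.011) and Lyz2 (-1.56 ± 0.39, 0.00992). Both calls held without any 1 library. The stage steps within global lungs were few. Lyz2 rose from E12.5 to E14.5 (1.39 ± 0.37, 0.0233), 1 of 9 against 3.66% of all genes, and was not called without any of 5 of the 7 libraries (0.0558 to 0.136). From E14.5 to E16.5, 1 of 9 rose, against 3.92% of all genes, and 1 fell, against 2.64%. Lyz2 was the gene that rose (1.37 ± 0.31, 0.0066), which was not called without E16.5 global 3 (1.19, 0.0547). Mrc1 was the gene that fell (-0.76 ± 0.13, 0.000347), to 28.1, 28.9 and 25.4 CPM at E16.5, against 42.7 to 48.8 CPM at E14.5. From E16.5 to E18.5 no member was called in global lungs, in edgeR or DESeq2, against 6.13% of all genes in either direction, and 1 had an unadjusted p under 0.05. Csf1r averaged 31.2 ± 2.18, 29.1 ± 3.47 and 26.4 ± 1.92 CPM in global lungs on the 3 later days, and 40.8 ± 1.85, 43.7 ± 2.64 and 58.4 ± 6.12 CPM in control lungs.

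At E18.5 lungs with Lin28A in the epithelium or in the mesenchyme were also measured. The global, epithelial and mesenchymal lungs were all set against the same 5 control libraries, so these results are not independent of each other. In mesenchymal lungs 7 of the 9 genes were lower, against 26.9% of all genes tested (median -0.83, and -0.02 over all genes), and DESeq2 called all 9. Csf1r had 34 and 28.4 CPM in mesenchymal lungs, against 51.7 to 67.6 CPM in control lungs (-0.90 ± 0.12, adjusted p = 2.68e-07). Lyz2 had 67.6 and 47.5 CPM in mesenchymal lungs, against 315 to 733 CPM in control lungs (-3.24 ± 0.37, 2.87e-08). Mpeg1 (-1.75 ± 0.30), Ptprc (-1.79 ± 0.48), Adgre1 (-0.83 ± 0.21), C1qa (-0.58 ± 0.16) and C1qb (-0.74 ± 0.22) also fell. Beside Ptprc, 7 of 11 monocyte and neutrophil, 4 of 5 B cell and 3 of 4 dendritic cell genes fell, and without mesenchymal 2 the counts were 1, 2 and 0. The monocyte and neutrophil genes summed to 65.7 and 76.1 CPM in mesenchymal lungs (1 gene at 0) and 101 to 194 CPM in control lungs, and their part was not tested. The call of C1qa ended without mesenchymal 1 (-0.52, 0.0523) and that of C1qb without mesenchymal 2 (-0.59, 0.103). Cx3cr1 had 11.9 and 12.7 CPM, just below every control library, and was not called (-0.66 ± 0.30, 0.0667), nor was Mrc1 (-0.26 ± 0.14, 0.122). Beside Lyz2, the alveolar type 2 genes summed to 1499 and 5136 CPM and Lyz1 averaged 8.53 ± 9.76 CPM in mesenchymal lungs, the control values being those given above. With 2 libraries the spread of this group rests on the other groups.

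In epithelial lungs 4 of the 9 genes were lower, against 15.2% of all genes tested (median -0.55, and -0.02 over all genes). They were Cx3cr1, Adgre1, Csf1r and Mrc1, and 2 members were called with only the compared groups in the fit or with a term for replicate number. Cx3cr1 had 1.52, 8.15 and 3.12 CPM in epithelial lungs, against 13, 16.0, 26.7, 21.9 and 19.0 CPM in control lungs. All 3 epithelial libraries were below every control library, and library 2 was the highest of them. The gene was 4.56-fold lower (-2.19 ± 0.30, adjusted p = 1.5e-06), and the log2 fold was -3.07 without epithelial 2. Adgre1 had 6.16, 7.71 and 5.97 CPM in epithelial lungs and 7.06 to 12.7 CPM in control lungs (-0.66 ± 0.18, 0.00595). That call ended with only the compared groups (-0.66, 0.0574) and with the replicate term (-0.51, 0.0537). Csf1r had 42.8, 43.2 and 51.6 CPM in epithelial lungs, against 51.7 to 67.6 CPM in control lungs (-0.35 ± 0.10, 0.00769), a call that ended without epithelial 1 (-0.30, 0.0557) and with only the compared groups (-0.35, 0.069). Mrc1 (-0.36 ± 0.12, 0.0237) was not called without epithelial 1 (-0.29, 0.134) or 3 (-0.36, 0.0631), nor with the term for replicate number (-0.27, 0.134). Lyz2 had 460, 364 and 234 CPM in epithelial lungs and 315 to 733 in control lungs, which overlapped (-0.62 ± 0.27, 0.0779). Beside it, 2 of the 10 alveolar type 2 genes fell (1 without epithelial 3), near the 15.2% of all genes. The 10 genes summed to 10899 to 18869 CPM in epithelial and 16774 to 26778 CPM in control lungs, and their part was not tested. Mpeg1 had 35.7, 31.2 and 26.1 CPM in epithelial lungs and 34 to 60.7 in control lungs (-0.55 ± 0.24, 0.0711), and Ptprc 7.81 to 10.4 CPM against 8.11 to 19.6 (-0.56 ± 0.38, 0.269). C1qa (-0.15 ± 0.14) and C1qb (-0.16 ± 0.18) had the folds nearest 0. The monocyte and neutrophil genes summed to 101 to 217 CPM in epithelial lungs, where 1 of 11 fell and 1 rose.

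Set directly against epithelial lungs, global lungs had 6 of the 9 genes lower and 1 higher, against 31.8% and 31.3% of all genes tested. The 6 were Lyz2 (-2.92 ± 0.27, adjusted p = 2.11e-10), Csf1r (-0.80 ± 0.10, 5.37e-08), Mpeg1 (-1.37 ± 0.24, 9.67e-06), Ptprc (-1.35 ± 0.38, 0.00316), C1qa (-0.47 ± 0.14, 0.00387) and C1qb (-0.43 ± 0.18, 0.0372). The call of C1qb ended without any of 6 single libraries. Cx3cr1 was the gene that was higher in global than in epithelial lungs (1.25 ± 0.30, 0.000522; 2.14 without epithelial 2). Adgre1 and Mrc1 were not called. Epithelial lungs set against mesenchymal lungs gave 6 genes higher, against 26.5% of all genes, and 1 lower, against 26.8%. The 6 were the same genes that were lower in global than in epithelial lungs, and the 2 comparisons share the epithelial libraries. Lyz2 (2.62 ± 0.37, 1.11e-06), Mpeg1 (1.20 ± 0.31, 0.00172) and Csf1r (0.56 ± 0.13, 0.000495) were the clearest, though Mpeg1 was not called without mesenchymal 2 (0.87, 0.0744). The calls of Ptprc, C1qa and C1qb ended without any of 3 or 4 single libraries each. Cx3cr1 was again the gene that was lower in epithelial lungs (-1.53 ± 0.34, 0.000439; -2.41 without epithelial 2). That call ended with only the compared groups in the fit (-1.55, 0.0537). Global and mesenchymal lungs had no member called between them, in edgeR or DESeq2, where 0.0218% of all genes were called in either direction, and 1 member had an unadjusted p under 0.05. Their differences ran from -0.30 ± 0.31 for Lyz2 to 0.16 ± 0.21 for C1qb, and standard errors of this size do not show that the groups were alike.

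The genes changed their proportions to Csf1r within a library. The CPM of Cx3cr1 was 0.0355 to 0.189 times that of Csf1r in epithelial lungs, against 0.328 to 0.448 in global, 0.351 to 0.449 in mesenchymal and 0.223 to 0.443 in control lungs. No epithelial library reached the others. The ratio of Mrc1 to Csf1r was 0.818 to 1.29 in global and 0.950 to 1.15 in mesenchymal lungs, above the 0.589 to 0.762 of epithelial and the 0.579 to 0.753 of control lungs. The ratio of C1qa to Csf1r was 0.538 to 0.620 in global lungs, against 0.339 to 0.467 in control lungs, and those of mesenchymal (0.441 to 0.573) and epithelial lungs (0.377 to 0.507) overlapped the controls. That of Lyz2 was 1.28 to 1.98 in global and 1.67 to 1.99 in mesenchymal lungs, against 4.54 to 10.77 in epithelial and 5.81 to 10.9 in control lungs. The ratio of Adgre1 overlapped between all 4 groups (0.116 to 0.272). These ratios are descriptions and were not tested.

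**Figure D4:**
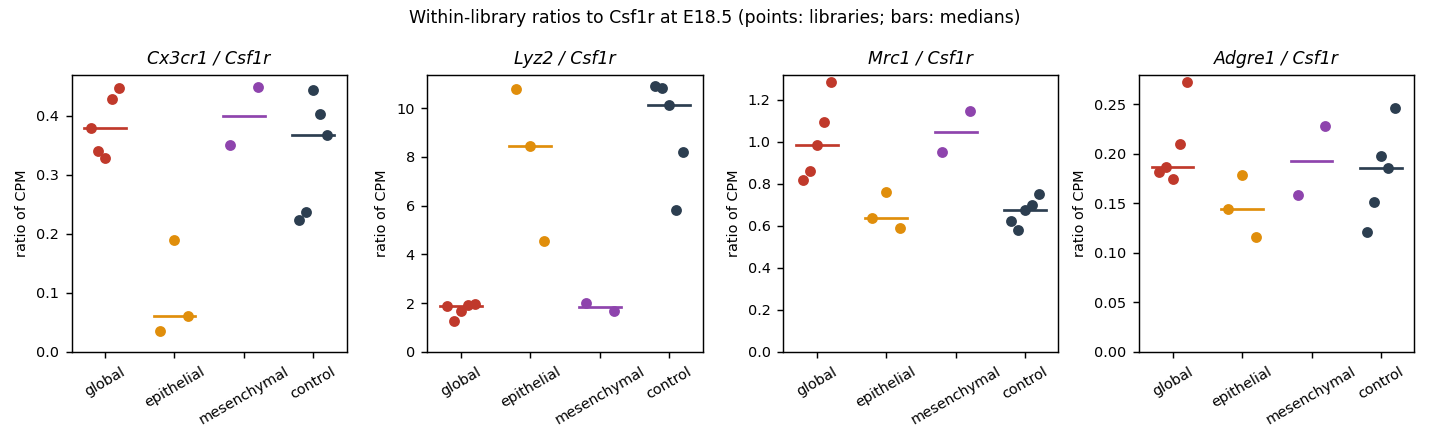
Within-library ratio of CPM to Csf1r at E18.5 for Cx3cr1, Lyz2, Mrc1 and Adgre1 (y axis, from 0) in global, epithelial, mesenchymal and control lungs; points are libraries and bars medians. Cx3cr1 stands apart in epithelial lungs (0.0355 to 0.189), Lyz2 and Mrc1 in global and mesenchymal lungs, and Adgre1 in none.

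The ligands of these receptors did not move together. Il34, a ligand of Csf1r, averaged 3.32 ± 0.776 CPM in E18.5 global, 15.0 ± 3.16 in epithelial and 3.79 ± 1.18 in mesenchymal lungs, against 20.8 ± 5.02 in control lungs. It was lower in global (-2.64 ± 0.19, adjusted p = 1e-12) and mesenchymal lungs (-2.45 ± 0.27, 1.1e-08), and not called in epithelial lungs (-0.47, 0.072). It was already lower in global lungs at E16.5, at 1.72 ± 0.233 CPM against 7.35 ± 1.04 CPM in control lungs (-2.09 ± 0.26, 3.3e-07). Csf1, the other ligand, averaged 18.9 ± 2.1 CPM in global and 19.0 ± 5.90 in epithelial lungs, against 26.0 ± 3.70 in control lungs (-0.46 ± 0.14, 0.0041, and -0.45 ± 0.16, 0.028). The epithelial call ended without any of 3 single libraries (0.0805 to 0.183). Cx3cl1, fractalkine, the ligand of Cx3cr1, was higher in epithelial lungs, with 19.3 ± 0.684 CPM against 11.6 ± 2.44 CPM in control lungs (0.74 ± 0.21, 0.0082), where its receptor was lowest. In global lungs it had 11.9 ± 2.84 CPM (0.04, 0.85) and in mesenchymal lungs 9.13 ± 2.80 CPM (-0.34, 0.28). Csf1 was not called in mesenchymal lungs either (-0.27, 0.22). Whether the levels of ligands and receptors were linked was not tested.

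Other macrophage genes, growth factors, chemokines and complement genes were counted in 5 lists, which were not limited to genes read by macrophages alone. The counts that follow stand beside 0.104%, 8.44%, 20.1% and 32.7% of all genes tested that were lower in global lungs from E12.5 to E18.5, and 15.2% in epithelial and 26.9% in mesenchymal lungs. Of 24 other macrophage genes tested, none rose at any stage in global lungs, and 0, 6, 16 and 23 fell at E12.5, E14.5, E16.5 and E18.5, with medians of -0.47, -0.52, -0.75 and -1.10. Without E14.5 control 3 the 6 were 2. In E18.5 global lungs Cd163, the haemoglobin scavenger receptor, averaged 0.543 ± 0.311 CPM against 4.48 ± 1.92 in control lungs (-2.99 ± 0.41, adjusted p = 2.3e-07), and Cybb, a subunit of the phagocyte oxidase, 4.65 ± 1.47 against 22.5 ± 5.48 CPM (-2.26 ± 0.22, 3.2e-10). Itgam, an integrin of myeloid cells, had a fold of -2.10 ± 0.32 (1.6e-06). In mesenchymal lungs 19 fell and none rose (median -1.15), Mertk, a receptor for the uptake of dying cells, at 22.5 ± 1.66 CPM against 85.6 ± 8.35 (-1.93 ± 0.17, 2.4e-10).

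In epithelial lungs, where 15.2% of all genes tested were lower, 5 of the 24 fell and 2 rose (median -0.25), and without epithelial 3 the 5 were 2. A count of this size is near the share over all genes. Gpr34, a receptor for a lysophospholipid, fell to 0.507 ± 0.332 CPM, against 1.75 ± 0.402 in control lungs (-1.78 ± 0.39, 0.00072; -2.44 without epithelial 2), and Fcgr1, an antibody receptor, to 3.44 ± 1.41 against 6.64 ± 1.05 (-0.95 ± 0.22, 0.0013). Cd14, which binds bacterial lipopolysaccharide, rose to 20.6 ± 5.90 CPM, against 9.68 ± 5.37 (1.11 ± 0.31, 0.0063).

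Among 10 transcription factors of macrophages, 0, 4, 8 and 10 fell in global lungs from E12.5 to E18.5, against 8.44%, 20.1% and 32.7% of all genes on the last 3 days, and 2 were called at E14.5 without control 3. In E18.5 global lungs the folds were -1.86 ± 0.17 for the oxysterol receptor Nr1h3, -1.48 ± 0.13 for Irf8 and -1.45 ± 0.19 for Spi1. Spi1, also called PU.1, averaged 5.72 ± 1.02 CPM in global and 6.36 ± 2.08 in mesenchymal lungs, against 15.7 ± 4.23 in control lungs. In epithelial lungs it had 13.2 ± 3.31 CPM and was not called (-0.24, 0.38). Of the 10 factors 8 fell in mesenchymal lungs. In epithelial lungs 4 fell, Nr1h3 by 1.42 ± 0.20 and Tfec by 1.09 ± 0.26 on the log2 scale, and Runx1, a factor of blood development also used outside it, rose to 94.8 ± 24.1 CPM, against 36.4 ± 5.84 CPM in control lungs (1.39 ± 0.16, 1.6e-07).

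Of 10 growth factors, chemokines and receptors 1, 3, 5 and 8 fell in global lungs from E12.5 to E18.5, the 1 at E12.5 being Ccl2 (-1.38 ± 0.31, 0.045), which was not called without any of the 6 libraries. Without E14.5 control 3, 1 of the 3 was called. In E18.5 global lungs Ccr2, the receptor of inflammatory monocytes, averaged 3.72 ± 1.07 CPM against 14.7 ± 3.90 in control lungs (-1.99 ± 0.30, 1.1e-06). Csf2, needed for alveolar macrophages, was lower in global (-2.06 ± 0.48, 0.00043) and epithelial lungs (-2.20 ± 0.59, 0.0049; -3.53 without epithelial 3) on 39 and 19 counts, against 147 in control lungs. Ccl2, a chemokine that attracts monocytes, rose in E18.5 global (1.17 ± 0.29, 0.00087) and mesenchymal lungs (1.49 ± 0.35, 0.00067). In all, 4 of this list fell in epithelial lungs (2 without epithelial 3) and 7 in mesenchymal lungs (4 without mesenchymal 2), beside 15.2% and 26.9% of all genes.

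Of 8 alveolar macrophage genes tested, 7 fell in E18.5 global and in mesenchymal lungs, against 32.7% and 26.9% of all genes. In epithelial lungs 2 fell, near the 15.2% of all genes, and 1 to 4 with 1 library left out. The counts were 0, 4 and 4 in global lungs at E12.5, E14.5 and E16.5, the first 4 being 2 without E14.5 control 3. These genes were sparse: Chil3, a chitinase-like protein, had 12 counts in E18.5 global, 2 in mesenchymal and 470 in control lungs (9.61 ± 7.09 CPM), and the scavenger receptor Marco 21, 11 and 234 counts. Of 8 complement genes other than C1q, 0, 2, 6 and 8 fell in global lungs from E12.5 to E18.5, none of the 2 being called without E14.5 control 3. At E18.5, 7 fell in mesenchymal lungs and 1 in epithelial lungs, where the count was 0 to 4 with 1 library left out and 15.2% of all genes fell. C3, the central component, averaged 4.98 ± 2.33 CPM in E18.5 global and 6.63 ± 4.97 in mesenchymal lungs, against 196 ± 103 in control lungs (-5.33 ± 0.38, 7.5e-13, and -4.88 ± 0.54, 1.6e-08; -5.97 and -4.27 without mesenchymal 1 and 2). Which cells of the lung these complement transcripts came from was not tested.

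**Figure D5:**
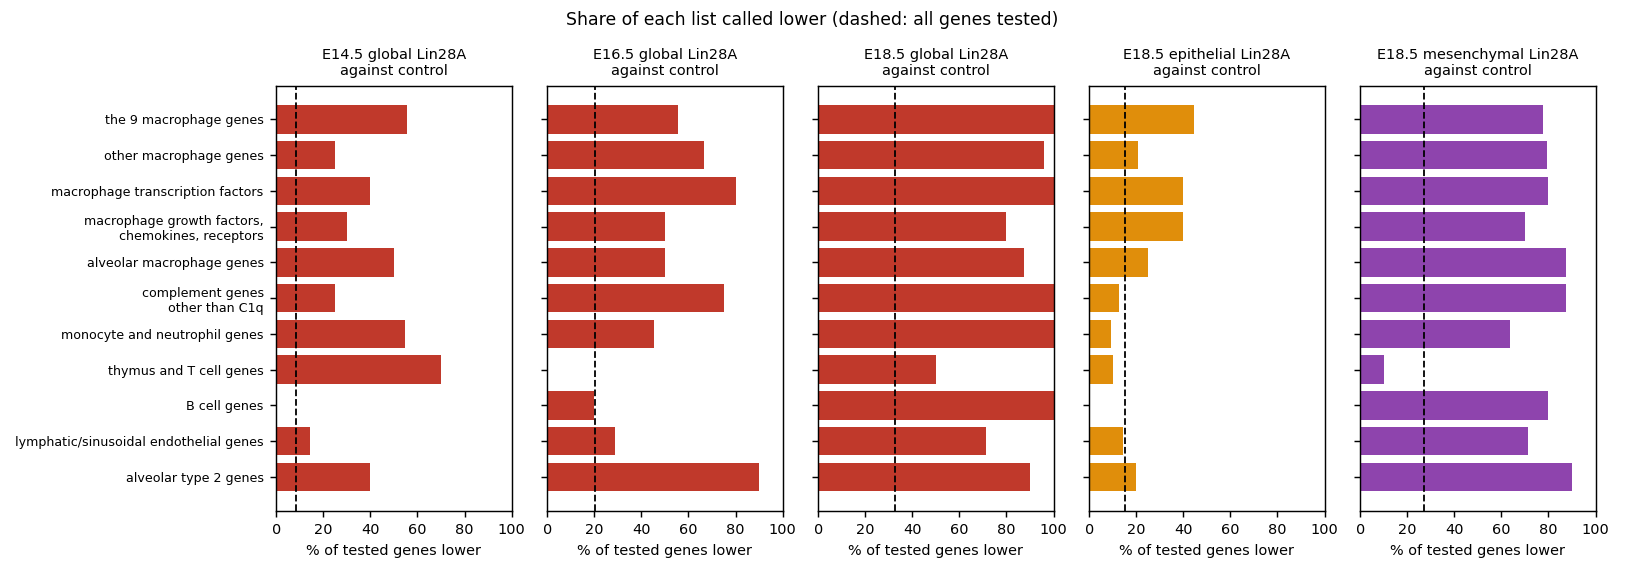
Share of the tested genes of each list called lower (x axis, percent; bars), in global lungs at E14.5, E16.5 and E18.5 and in epithelial and mesenchymal lungs at E18.5, each against control lungs; dashed lines mark the share of all genes tested. The 9 macrophage genes stand at 9 of 9 in E18.5 global lungs, 4 of 9 in epithelial and 7 of 9 in mesenchymal lungs, beside dashed lines at 32.7%, 15.2% and 26.9%.

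The joint course of the 9 genes, as the mean of their centred log2 CPM over the 34 libraries, was closest to that of Vwa5a (root mean square difference 0.141), Nrp1 (0.180), Vim (0.183) and Tmem176b (0.185), followed by Plgrkt, Pros1, Cd38, Lgals8, Tyrobp and Sypl (0.198 to 0.207). Without E14.5 control 3, 5 of these 10 were again among the closest 10. The members themselves lay further from their mean than that, from 0.252 for C1qa and 0.266 for Csf1r to 0.976 for Cx3cr1 and 1.77 for Lyz2. The 10 genes were picked as the closest of all genes tested, so that contrast largely follows from the picking. Exons of Csf1r overlap Hmgxb3 on the opposite strand, and it is not given in the sources used here whether counting used strand. At E18.5 Hmgxb3 was not called in global (0.12 ± 0.08, adjusted p = 0.178) or epithelial lungs (0.06 ± 0.09, 0.616). It was called higher in mesenchymal lungs (0.24 ± 0.10, 0.0444). Its part in the counts of Csf1r was not tested.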

How the data were processed

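RNA of whole lungs was sequenced in 34 libraries. The authors deposited counts of reads per gene, which per the submitters' processing notes came from bcl2fastq 2.17.1.14, cutadapt, STAR 2.4.2a and HTSeq 0.6.1p1 on GRCm38, with DESeq2 1.10.1 also named. The deposited normalized table holds a signal per gene equal to the counts divided by a size factor, and was used only to check that. Whether counting used strand is not given in the sources used here. Groups came from the labels. One column header reads Wt2 where the title reads Wt1, and was matched by day and replicate.

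Genes with low counts were removed with edgeR's filter, which left 18319 of 21789. TMM-scaled counts of all 34 libraries entered 1 fit with a mean per group (edgeR 4.0.16, quasi-likelihood test, limma 3.58.1, R 4.3.3). Every comparison was adjusted over all genes tested by the Benjamini-Hochberg method, and called at an adjusted p under 0.05. Log2 fold changes and their standard errors come from that fit and not from deposited values. CPM used TMM library sizes, and levels between genes were divided by the length of the principal transcript (GENCODE M21). Alternatives were RLE size factors, no filter, DESeq2 1.42.0, only the compared groups, a replicate block and leaving out each library. The fit was tested on simulated data. List genes given with a fold came from those with the largest called folds, up to 3 per list and comparison. Not all of these are named. Csf1, Il34, Cx3cl1, C1qc and Spi1 are named as well. Ccl2 is given in E18.5 global lungs though outside those 3, and Elane, Cd3e and Ptcra are named for having no counts. Lyz1, a near copy of Lyz2, and Hmgxb3, which overlaps Csf1r, were named after their values were seen. The 9 members and the lists were chosen with earlier results of these data known.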

Additional observations from a re-analysis of the deposited data

Results flagged for a closer look

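The effect of global Lin28A on Csf1r differed between days by a direct test of that difference. The log2 fold was lower at E18.5 than at E16.5 by a change of -0.55 ± 0.14 (edgeR, adjusted p = 0.011), the folds being -1.14 at E18.5 and -0.59 at E16.5. Without any 1 library the change lay between -0.65 and -0.48. Lyz2 was picked out in the same way, with a change of -1.56 ± 0.39 (0.00992), the folds being -3.54 at E18.5 and -1.98 at E16.5, and a range of -1.71 to -1.38 without single libraries. The changes of all 9 members lay below 0, and the other 7 were not called. No library stood apart within its group for any member, among 27 gene and group pairs of 4 or 5 libraries, where chance alone picks about 1 in 20. Smaller groups could not be flagged by that rule, E14.5 control with its library 3 among them.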

How the results depend on the processing

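All 9 members stayed lower in E18.5 global lungs under every alternative run. Calls elsewhere depended on the spread used. With only the compared groups in the fit, members called numbered 2 in epithelial lungs (4 with all groups), 2 for E14.5 over E12.5 control lungs (6), 4 for E16.5 over E14.5 global lungs (2), 1 for E18.5 over E16.5 global lungs (0), 1 for the change of the global effect from E14.5 to E16.5 (0, and 1 with DESeq2) and 4 between epithelial and mesenchymal lungs (7). The same fit gained calls, 6 in E14.5 global (5) and 7 in E16.5 global lungs (5). Leaving out 1 library gave 0 to 1 members for E12.5 and 2 to 5 for E14.5 global lungs, 2 to 6 and 2 to 4 for the E14.5 and E18.5 steps of control lungs, 0 to 1, 1 to 2 and 0 to 1 for the 3 steps of global lungs, and 3 to 7 between epithelial and mesenchymal lungs. Small folds changed sign without single libraries. They ran from -0.31 to 0.37 for Mpeg1 in E12.5 global lungs, -0.0070 to 0.28 for Cx3cr1 in E14.5 global lungs and -0.10 to 0.078 for Adgre1 at the E14.5 step of control lungs. At the E16.5 step of control lungs they ran from -0.20 to 0.081 (Cx3cr1), -0.22 to 0.053 (Adgre1), -0.84 to 1.11 (Ptprc), -0.085 to 0.19 (C1qa) and -0.16 to 0.017 (C1qb). The Ptprc fold of 1.11 was the one without E14.5 control 3. Fits with fewer libraries have fewer degrees of freedom, which bears on calls and not on the sign of a fold. The cause of these changes was not tested. Replicate numbers were not taken as pairing the libraries: correlations of same-numbered libraries ran from -0.27 to 0.44, and in E18.5 global against mesenchymal lungs alone, with 2 pairs, were both pairs over 0.1 (0.230 and 0.435). With the replicate block, 2 members were called in epithelial lungs (4 without it), Adgre1 (-0.51, 0.0537) and Mrc1 (-0.27, 0.134) being lost, and Mpeg1 was not called in E14.5 global lungs (-0.79, 0.0972). The E18.5 controls were not equally alike, by the spread between 2 libraries relative to counting alone. This spread was 18.4 for controls 1 and 2 and 17.5 to 25.0 among controls 3 to 5. Between controls 1 or 2 and controls 3 to 5 it was 48.6 to 82.8. Controls 1 and 2 also had the lowest total counts of the group (7147301 and 9414480). No fit left out both. No scaling moved the median fold of all genes by more than 0.068. The lowest count of any member was 17, for Cx3cr1 in an epithelial library, and the mesenchymal group has 2 libraries.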
